A study of Ovis aries with 16 samples.

Results

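The 5 ovine small nuclear RNA (snRNA) genes LOC114111412, LOC114111395, LOC114115462, LOC114117093 and LOC114117060 were followed through every library of a sheep small RNA study. They are 5 of the 1148 snRNA rows of the deposited table and 5 of the 28 that had a mean of at least 5 normalised reads in muscle. They were picked because their values were lower in muscle of prenatal T-treatment ewes than in muscle of control ewes. For these genes that contrast is therefore a description with no test, and the counts of calls over all muscle snRNAs stand only as background to it. Their tests are those in liver and between the tissues, and the second also uses the muscle libraries.

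The study took liver and muscle from 8 female sheep (Ovis aries). The prenatal T-treatment group, ewes exposed to testosterone before birth, held ewes 48, 185, 233 and 255, and the control group held ewes 98, 131, 132 and 201. Each ewe gave 1 muscle and 1 liver library, so there were 16 libraries in 4 groups of 4: muscle of prenatal T ewes, muscle of control ewes, liver of prenatal T ewes and liver of control ewes. The dose and timing of testosterone, the breed, the age at sampling and the muscle taken were not stated in the labels. Whole tissue was homogenised, so fewer cells of a type and less RNA per cell cannot be told apart in any of the values.

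Small nuclear RNAs are short non-coding RNAs that join proteins to form small nuclear ribonucleoproteins. The best known of these particles make up the spliceosome, which cuts introns out of messenger RNA precursors, and others process histone messages or hold back transcription elongation. Mammalian genomes carry snRNAs as many nearly identical copies, often in clusters, so a short read may match several copies equally well. In sheep, testosterone given to the pregnant ewe is used to model features of polycystic ovary syndrome, including reduced insulin sensitivity in tissues such as liver and muscle.

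RefSeq (assembly ARS-UI_Ramb_v3.0, used here only for names, neighbouring genes and lengths) lists all 5 as snRNAs but gives them no type, so none is called U1, U2 or any other kind here. LOC114111412 and LOC114111395 are 164 bases long and lie in the same gap between HJV, the gene of the iron-regulating co-receptor hemojuvelin, and LOC101119949. LOC114115462 is 164 bases long and lies between LOC114115332 and PPEF2, the gene of a calcium-regulated phosphatase. LOC114117093 has 165 bases and LOC114117060 has 164, and both lie between TEX14, a gene of germ cell bridges, and RAD51C, a gene of homologous recombination. The rule used no length and no position. All 5 fall in the range of 163 to 165 bases, which holds 35 of the 1010 snRNA rows that RefSeq lists. Of those 35 rows, 29 were above 0 in at least 1 library and 11 were abundant enough to be tested in muscle, the 5 described and 6 others. The length was common among the genes that could be picked, since those 11 were among 21 tested rows that RefSeq lists. A length shared by neighbouring copies is a description and was not tested.

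The snRNA class was shallow. Reads recovered from the deposited values summed to between 200 and 1740 snRNA reads in a muscle library and between 270 and 1750 in a liver library, of 239871 to 1819374 and 250251 to 887739 reads in the 4 RNA classes tabulated. The shallowest was muscle of ewe 255, with 200 snRNA reads, where 1 read was worth 3.19 normalised reads. It is also the only muscle library whose number in the labels lies outside the run from 57 to 63. The muscle microRNA MIR133, 1 of 6 listed muscle markers that the table holds, took 37.2% to 56.4% of microRNA reads in prenatal T muscle, 50.0% to 54.8% in control muscle and at most 0.227% in liver. The liver-rich MIR148A and MIR194, 2 of 4 listed, together took 9.97% to 14.6% in prenatal T liver, 10.7% to 13.7% in control liver and at most 0.351% in muscle, so the tissue labels fitted the microRNA content.

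In muscle, the 5 snRNAs were all lower on average in prenatal T ewes, by 0.59 to 1.66 on the log2 scale. LOC114111412 had 18.8, 15.3, 21.9 and 12.8 normalised reads in muscle of prenatal T ewes 48, 185, 233 and 255, against 26.3, 24.5, 41.6 and 27.9 in muscle of control ewes 98, 131, 132 and 201. Every prenatal T library was below every control library, and ewe 132 stood highest. The means were 17.2 ± 3.99 in prenatal T muscle and 30.1 ± 7.81 in control muscle (SD, n = 4 each), a log2 difference of -0.77 ± 0.22 (SE, limma on log2 of the value plus 1). Its neighbour LOC114111395 had 18.3, 15.3, 21.0 and 12.8 normalised reads in the prenatal T ewes, against 25.7, 24.5, 41.0 and 24.6 in the control ewes, in the same ewe order. Its log2 difference was -0.73 ± 0.22 (SE), and again the groups did not overlap.

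LOC114115462 was the flattest of the 5 among control ewes. It had 13.2, 10.2, 17.7 and 16.0 normalised reads in prenatal T muscle, against 23.9, 20.9, 20.2 and 21.3 in control muscle. The lowest control library was thus 20.2, above the highest prenatal T library at 17.7. The means were 14.3 ± 3.27 in prenatal T muscle and 21.6 ± 1.64 in control muscle (SD, n = 4 each), and the log2 difference was -0.59 ± 0.20 (SE).

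The pair next to TEX14 had the larger and more scattered differences. LOC114117093 had 37.7, 27.2, 20.2 and 3.19 normalised reads in prenatal T muscle, against 58.4, 39.9, 85.0 and 42.6 in control muscle, with no overlap and a log2 difference of -1.64 ± 0.60 (SE). LOC114117060, the most abundant of the 5 in muscle, had 44.3, 32.2, 22.7 and 3.19 normalised reads in prenatal T muscle, against 64.8, 41.7, 92.3 and 55.7 in control muscle. Here the groups overlapped, since prenatal T ewe 48 stood above control ewe 131, and the log2 difference was -1.66 ± 0.63 (SE). The value of 3.19 in ewe 255 was 1 read of each gene, with an exact Poisson 95% interval of 0.0808 to 17.8 normalised reads that covers counting error only. The interval overlaps that of ewe 233, which starts at 12.9 for LOC114117093 and 15.0 for LOC114117060.

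**Figure D1:**
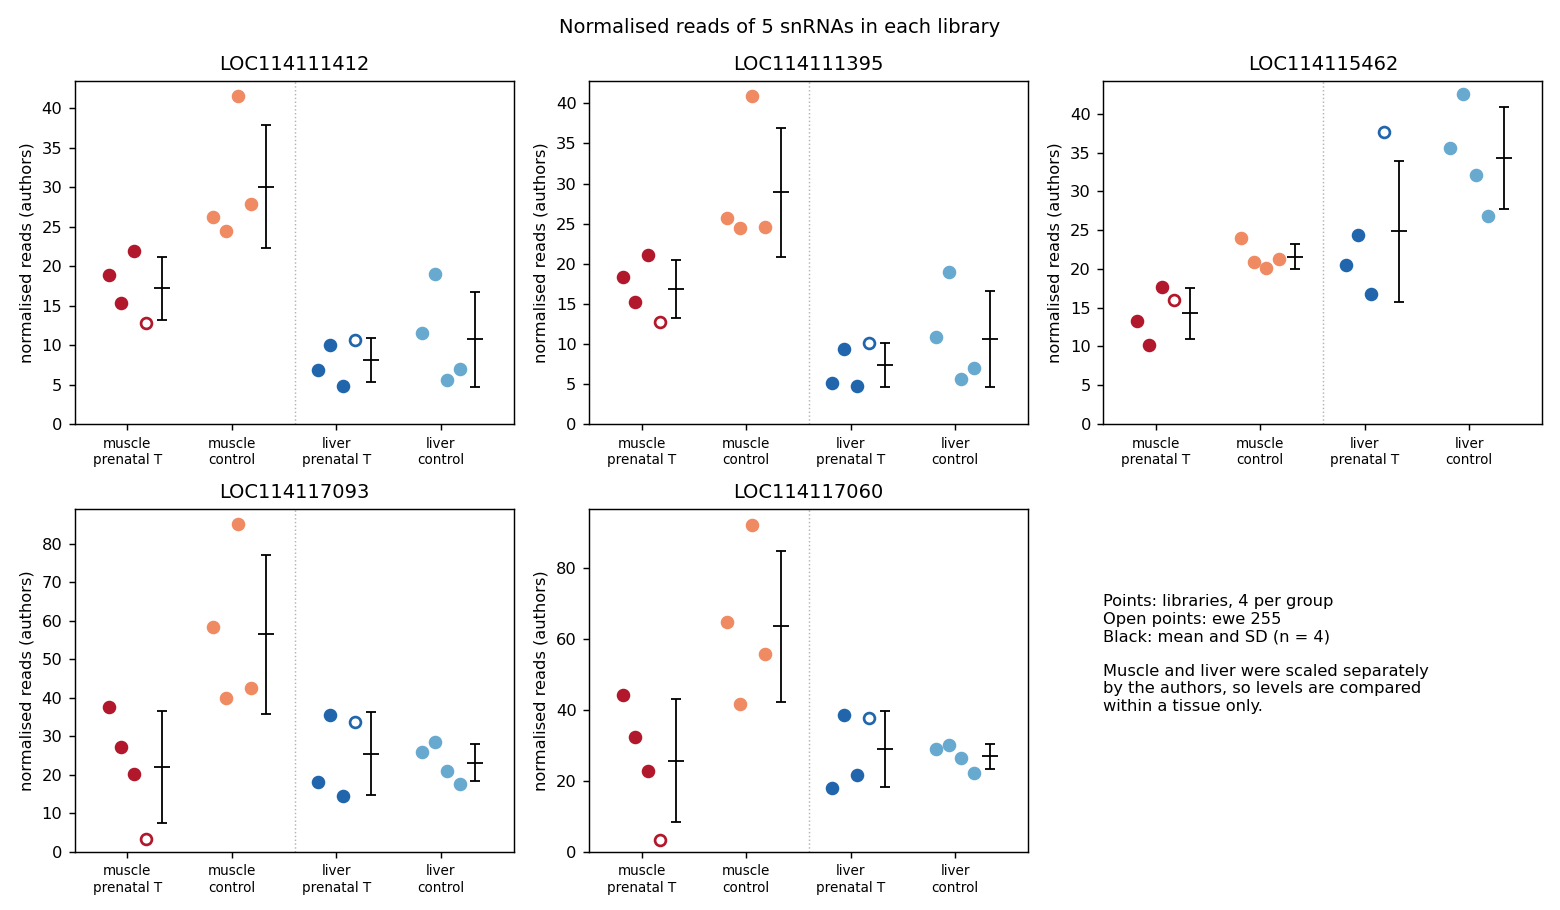
Normalised reads, as deposited by the authors, of the 5 snRNAs in each library, with prenatal T left of control within muscle and within liver; points are libraries (open points, ewe 255), and black bars are means with SD (n = 4). In muscle the prenatal T points of LOC114111412, LOC114111395, LOC114115462 and LOC114117093 all lie below the control points, and the ewe 255 points of LOC114117093 and LOC114117060 lie at 3.19; in liver the groups overlap for all 5.

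Leaving out ewe 255 made the pair next to TEX14 less extreme and moved the other 3 little. Over the remaining 3 prenatal T ewes, LOC114117093 averaged 28.3 ± 8.81 normalised reads and LOC114117060 averaged 33.1 ± 10.8 (SD, n = 3). The log2 differences from control muscle became -0.95 ± 0.29 for LOC114117093 and -0.92 ± 0.29 for LOC114117060 (SE). Without ewe 255 the difference was -0.64 ± 0.25 for LOC114111412, -0.62 ± 0.25 for LOC114111395 and -0.65 ± 0.27 for LOC114115462 (SE). On the log2 scale the 5 genes thus spread over a range of 0.62 to 0.95 lower without that library, and of 0.59 to 1.66 lower with it.

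No snRNA passed an adjusted test in muscle at the filter used here. In muscle, limma with Benjamini-Hochberg adjustment called 0 of the 28 snRNAs tested (0%). Unadjusted p-values were under 0.05 for 5, and those 5 are the genes described here. The edgeR quasi-likelihood test on the recovered reads gave 0 calls and 10 unadjusted p-values under 0.05. DESeq2 gave 0 calls and 3 such p-values. With no filter on low values, limma called 4 of 147 snRNAs, all lower in prenatal T muscle, 2 of them among the 5. Every prenatal T library lay below every control library for 7 of the 28 snRNAs (25%), 4 of them among the 5 described, and this count was also 7 (25%) without ewe 255. Every prenatal T library lay above every control library for 8 of the 28 (28.6%). Because the genes were picked on this contrast, nothing is read from their share of these counts. The 28 also include near-identical copies, 3 pairs of them with equal reads in all 16 libraries, so the counts are not of separate measurements.

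The separation of the muscle groups also depended on the scale. When reads were scaled over all 16 libraries together, 0 of the 28 snRNAs (0%) had every prenatal T library below every control library, while 9 (32.1%) had every one above. LOC114111412 then ran from 11.6 to 24.9 scaled reads in prenatal T muscle and from 17.7 to 40.9 in control muscle, and its log2 difference was -0.56 ± 0.33 (SE). On that scale the differences of the 5 ranged from -1.45 for LOC114117060 to -0.38 for LOC114115462. Scaled to the reads of the 4 RNA classes, 0 of the 28 (0%) kept the groups apart in either direction, and the log2 differences of the 5 ranged from -1.98 to -0.88. All 5 were lower in prenatal T muscle under each of these scalings, but they were picked for that direction in these libraries. The median of all 28 tested snRNAs moved too, from -0.25 as deposited to -0.04 under joint scaling and -0.56 under the 4-class scaling.

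The genes ranked just outside the 5 by limma's unadjusted p in muscle were of both directions. LOC114117117, which RefSeq lists with 191 bases, had 34.1, 52.6, 34.5 and 35.1 normalised reads in prenatal T muscle, against 30.4, 32.7, 26.3 and 27.9 in control muscle, so that it was higher in every prenatal T library as deposited and under joint scaling, while the groups overlapped under the 4-class scaling. LOC114111385, a copy from the same gap next to HJV as LOC114111412, had 19.9, 22.1, 24.4 and 25.5 normalised reads in prenatal T muscle, against 28.6, 26.3, 46.5 and 26.2 in control muscle. It was lower in every prenatal T library as deposited, while its groups overlapped under joint and 4-class scaling. LOC114111387, the third, had the same reads as LOC114111385 in every library. Just inside the rule stood LOC114117060, whose groups overlap.

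The other copies next to HJV had differences of the same sign as LOC114111412 and LOC114111395, and smaller. Apart from those 2 genes, 5 tested snRNAs lie in that gap (LOC114111383, LOC114111385, LOC114111388, LOC114111391 and LOC114111405), and 5 of 5 had a lower mean log2 value in prenatal T muscle, with a median difference of -0.29 and a range of -0.42 to -0.24. Under joint scaling it was again 5 of 5, with a median of -0.08. As deposited, 2 of these 5, LOC114111383 and LOC114111385, had every prenatal T library below every control library, as LOC114111412 and LOC114111395 did. Of the 6 tested snRNAs of 163 to 165 bases that are not among the genes described, 5 were lower, with a median of -0.27. The exception was LOC114117038, which lies inside TEX14 and had a log2 difference of 0.57. The 6 tested snRNAs listed with 191 bases lay on the other side, with 0 of 6 lower and a median of 0.36 as deposited, but 2 of 6 lower and a median of 0.04 under the 4-class scaling. Over all 28 tested, 15 were lower and 13 higher, with a median of -0.25, and without the 5 described 10 were lower and 13 higher, with a median of 0.23. The lowest outside the 5 were LOC114109197, LOC114109164 and LOC114109241, not listed by RefSeq, at -1.79 ± 1.02, -1.67 ± 0.96 and -1.42 ± 0.86 (SE). Their groups overlapped, but LOC114109197 and LOC114109164 had lower differences than any of the 5. Under the 4-class scaling 18 of the 28 were lower and 10 higher, 13 and 10 without the 5. These lists were drawn up with the values known, and the values were scaled within the snRNA class, so that a lower share for some genes means a higher share for others. Copies within a list may share reads, so their counts may not be of separate measurements.

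**Figure D2:**
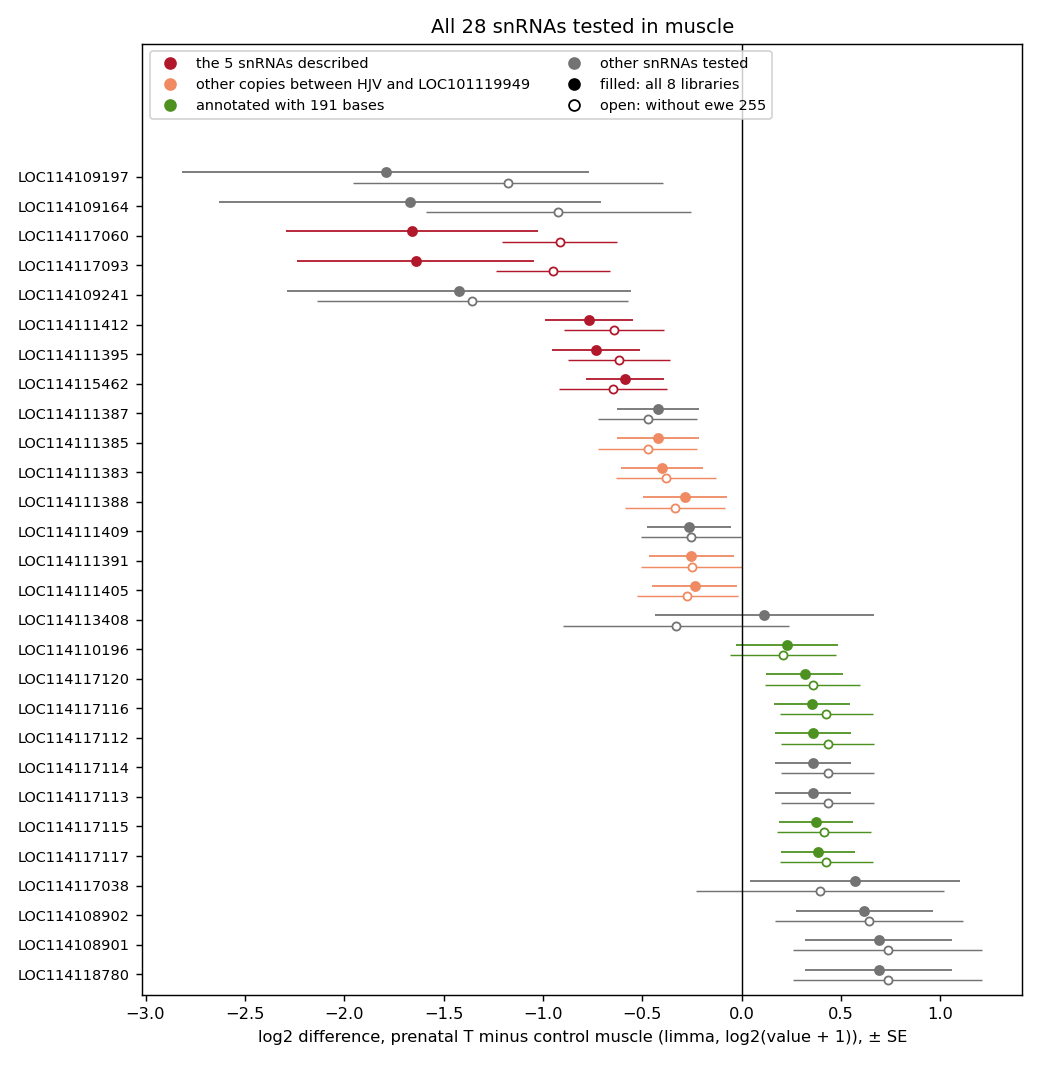
Log2 difference between prenatal T and control muscle for each of the 28 snRNAs tested, with all 8 libraries (filled) and without ewe 255 (open); bars are the SE from limma. The 5 snRNAs described lie between -1.66 and -0.59, the other copies next to HJV between -0.42 and -0.24, and the copies of 191 bases between 0.23 and 0.38. The lowest difference of all, -1.79, is that of LOC114109197, which is not among the 5.

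The endothelial and stromal microRNAs MIR143, MIR10B and MIR199A are the 3 of 5 such markers that the table holds. Together they took 1.95% to 2.84% of microRNA reads in prenatal T muscle and 2.70% to 4.04% in control muscle, with overlapping ranges. MIR143 and MIR199A overlapped too, and MIR10B was apart by a narrow margin, at 0.264% to 0.306% in prenatal T muscle and 0.310% to 0.429% in control muscle. How many of all microRNAs keep the muscle groups apart was not counted, so nothing is read from MIR10B. The blood cell microRNAs MIR16B and MIR150, 2 of 5 listed, took 0.406% to 1.01% in prenatal T muscle and 0.517% to 0.668% in control muscle. The part of either in the snRNA values was not tested.

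Within a library, a ratio of reads of 2 snRNAs does not depend on how the library is scaled. LOC114117112, a 191-base copy, served as the denominator. LOC114111412 had 0.290 to 0.65 reads per read of LOC114117112 in prenatal T muscle and 0.771 to 1.62 in control muscle. LOC114115462 had 0.194 to 0.525 in prenatal T muscle and 0.657 to 0.788 in control muscle. LOC114117060, whose normalised values overlapped, had 0.1 to 1.30 in prenatal T muscle and 1.31 to 3.60 in control muscle. In these 3 ratios the muscle groups did not overlap, although the margin for LOC114117060 was narrow. The denominator itself had a log2 difference of 0.36 as deposited and 0.04 under the 4-class scaling, and it was chosen after its values were seen. Numerators and denominator were thus picked with their muscle values known, so the separation can follow from that choice and is a description only.

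**Figure D3:**
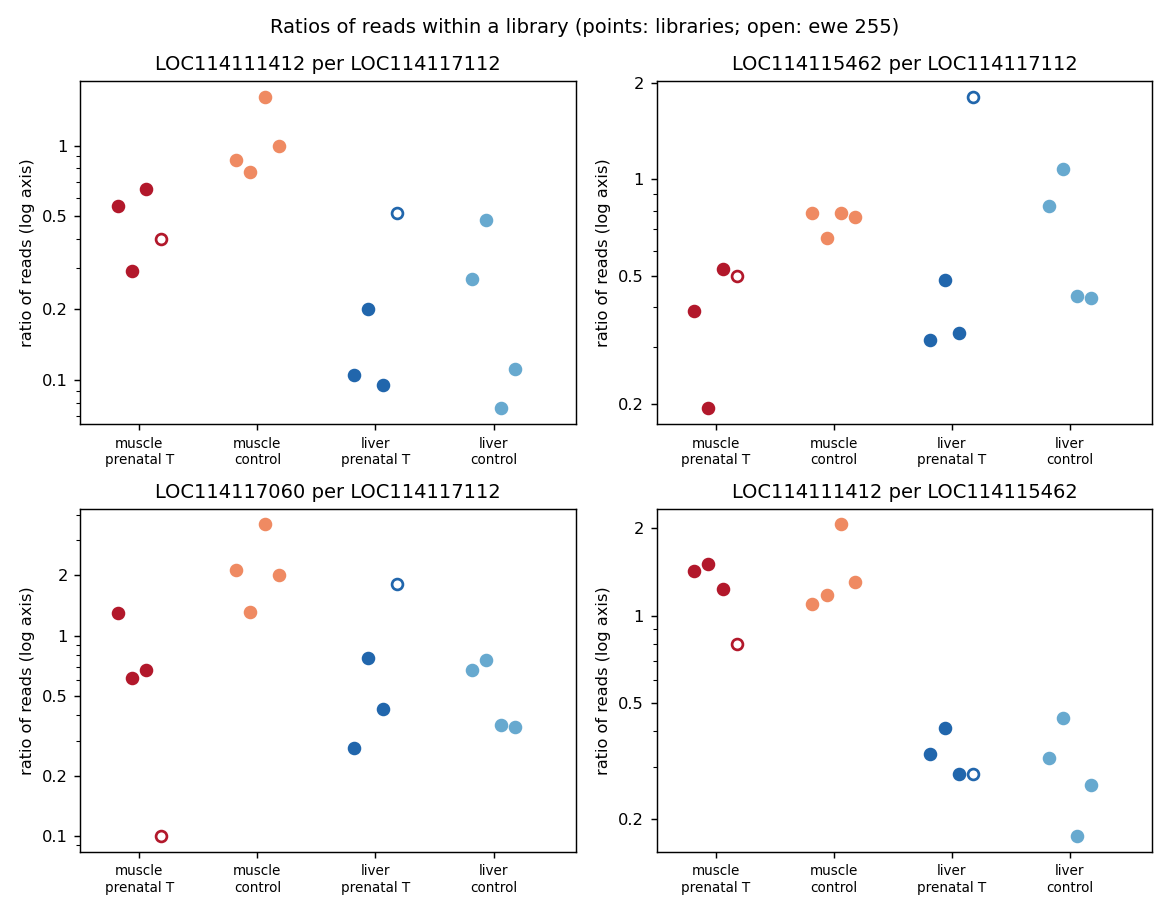
Ratios of reads of 2 snRNAs within each library, on log axes, with prenatal T left of control in muscle and in liver; points are libraries and open points are ewe 255. In muscle the 3 ratios to LOC114117112 do not overlap between the groups, in liver they do, and the ratio of LOC114111412 to LOC114115462 is 0.8 or more in every muscle library and 0.444 or less in every liver library.

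The 5 genes did not give 5 separate readings. LOC114111412 and LOC114111395 held 333 and 321 reads over the 16 libraries, were equal in 7 of them and differed by at most 2 reads in any. LOC114117093 and LOC114117060 held 690 and 775 reads, were equal in 2 libraries and differed by at most 13 reads. LOC114115462, with 480 reads, was equal to another of the 5 in 1 library only. Among the 28 tested snRNAs, 3 pairs of other genes had equal reads in all 16 libraries. The labels do not say how reads that match several copies were counted, so each pair is best read as 1 measurement.

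The deviations of each library from its group mean showed the same pairs. Over 16 libraries, LOC114111412 and LOC114111395 had a Pearson correlation of 0.982 (Spearman 0.968), and LOC114117093 and LOC114117060 also had 0.982 (Spearman 0.985). The next most similar snRNA to LOC114111412 was LOC114111391, from the same gap next to HJV, at 0.906, and the same copy was next for LOC114111395, at 0.938. For LOC114117060 and LOC114117093 the next by Pearson was LOC114109164, which RefSeq does not list, at 0.601 and 0.586 (Spearman 0.571 and 0.529). By Spearman the next for both was LOC114111395, of the pair next to HJV, at 0.718 and 0.741. LOC114115462 was most similar to LOC114111412, at 0.598, with 0.078 within muscle and 0.775 within liver. Against LOC114117093 it had -0.44 within muscle and 0.854 within liver. The libraries share depth and a scaling within the class, so these correlations are descriptions.

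**Figure D4:**
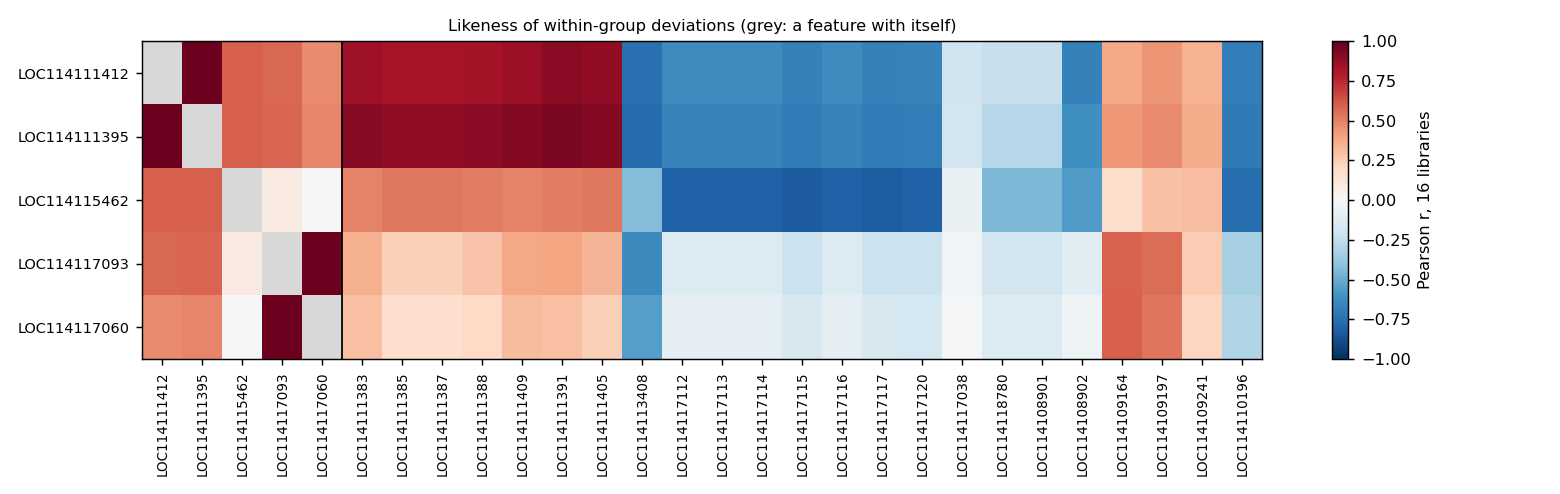
Pearson correlation over 16 libraries between each of the 5 snRNAs (rows) and the 28 snRNAs tested (columns), computed on deviations of log2(value + 1) from the group mean; grey marks a gene with itself. LOC114111412 and LOC114111395 correlate with the other copies next to HJV. LOC114117093 and LOC114117060 correlate most with each other, at 0.982, and at 0.474 to 0.579 with LOC114111412 and LOC114111395.

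In liver, which played no part in the choice, none of the 5 snRNAs passed the test. By limma, 0 of 21 snRNAs (0%) were called, and unadjusted p-values under 0.05 numbered 0 as well. The edgeR and DESeq2 fits gave 0 calls and 0 unadjusted p-values under 0.05. Every prenatal T library lay below every control library for 0 of 21 snRNAs (0%), and the groups overlapped for all 5 described.

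LOC114115462 came closest to its muscle value. It had 20.6, 24.3, 16.8 and 37.7 normalised reads in liver of prenatal T ewes 48, 185, 233 and 255, against 35.6, 42.6, 32.2 and 26.8 in liver of control ewes 98, 131, 132 and 201. In prenatal T ewes 3 of 4 libraries were below all control libraries, and ewe 255 was above 3 of them. The means were 24.8 ± 9.10 in prenatal T liver and 34.3 ± 6.62 in control liver (SD, n = 4 each), with a log2 difference of -0.49 ± 0.34 (SE) and a limma adjusted p of 0.965.

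The pair next to HJV was sparse in liver. LOC114111412 had 6.85, 9.99, 4.80 and 10.7 normalised reads in prenatal T liver, against 11.5, 18.9, 5.60 and 6.99 in control liver, a log2 difference of -0.29 ± 0.54 (SE, limma adjusted p = 0.965). LOC114111395 had 5.14, 9.36, 4.80 and 10.1 normalised reads in prenatal T liver, against 10.8, 18.9, 5.60 and 6.99 in control liver, a log2 difference of -0.40 ± 0.56 (SE, limma adjusted p = 0.965). The lowest of these libraries, prenatal T ewe 233, held 2 reads of each gene. Without control ewe 131, the highest library of both, the log2 differences were 0.0067 ± 0.45 for LOC114111412 and -0.09 ± 0.47 for LOC114111395 (SE).

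The pair next to TEX14 lay near 0 in liver. LOC114117093 had 18.0, 35.6, 14.4 and 33.7 normalised reads in prenatal T liver, against 25.8, 28.4, 21.0 and 17.5 in control liver, a log2 difference of 0.05 ± 0.33 (SE, limma adjusted p = 0.965). LOC114117060 had 18.0, 38.7, 21.6 and 37.7 normalised reads in prenatal T liver, against 29.0, 30.0, 26.6 and 22.1 in control liver, a log2 difference of 0.04 ± 0.34 (SE, limma adjusted p = 0.965). For both genes prenatal T ewes 185 and 255 were the 2 highest libraries and prenatal T ewe 48 or 233 the lowest. Ewe 255, which had 1 read of LOC114117060 in muscle, had 67 in liver. Whether the prenatal T difference itself differed between muscle and liver was not tested, because the muscle values chose the genes.

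By counts, 3 of the 5 had a lower and 2 a higher mean log2 value in liver of prenatal T ewes, and their median difference was -0.29, against 11 lower and 10 higher with a median of -0.23 over all 21 tested. The other 5 copies next to HJV had 0 of 5 lower in liver, with a median of 0.07. The 191-base copies had 6 of 6 lower in liver, with a median of -0.27. Copies within either list may share reads, so these counts may not be of separate measurements. As deposited, the sides of both lists in liver were thus opposite to those in muscle, but under the 4-class scaling 21 of 21 snRNAs were lower in prenatal T liver, the 5 described among them.

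As a share of snRNA reads, the 5 together held 15.4% ± 7.97 in prenatal T liver and 15.1% ± 5.19 in control liver (SD, n = 4 each). The difference of 0.244 percentage points had a two-sided exact permutation p of 1 over 70 assignments, which can give no p below 0.0286. In muscle, as a description, the share was 18.1%, 10.7%, 14.9% and 7.5% in prenatal T ewes 48, 185, 233 and 255, against 19.6%, 19.3%, 28.7% and 23.0% in control ewes 98, 131, 132 and 201. All other snRNAs together were 0.0685% ± 0.0121 of the reads of the 4 classes in prenatal T muscle and 0.0986% ± 0.0498 in control muscle (SD, n = 4 each; two-sided exact permutation p = 0.371). In liver the same share was 0.120% ± 0.0346 in prenatal T ewes and 0.186% ± 0.158 in control ewes (SD, n = 4 each; two-sided exact permutation p = 0.686).

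Muscle and liver were set on 1 scale by size factors computed over all 16 libraries, since the deposited values were scaled within each tissue. The contrast averaged over both treatments in groups of equal size, so its estimate does not use the contrast that chose the genes. The muscle libraries that chose them still enter the fit and its error, so its p-values are not fully free of the choice. Tissue also nearly coincided with the library numbers in the labels. Muscle libraries were numbered below 100 except that of ewe 255, and liver libraries above 100 except those of ewes 48 and 98. The part of library number in the differences between tissues was not tested. Of 28 snRNAs tested, 11 were higher in muscle than in liver (39.3%) and 8 were lower (28.6%) at a limma adjusted p under 0.05. Near-identical copies are counted singly here, so these are not shares of separate measurements. The 5 genes fell into 3 behaviours.

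LOC114115462 was lower in muscle than in liver. It had 7.76 to 20.1 scaled reads in the 8 muscle libraries and 19.1 to 58.5 in the 8 liver libraries, and was lower in muscle in 7 of 8 ewes. The log2 difference was -1.12 ± 0.24 (SE, limma adjusted p = 0.000683). It passed the threshold in every alternative run, with adjusted p-values from 0.000581 to 0.0120. Being lower in muscle was not particular to it. In the main fit the 6 tested snRNAs listed with 191 bases ran from -0.98 for LOC114117112 (limma adjusted p = 0.000323) to -0.38 for LOC114110196 (limma adjusted p = 0.103).

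LOC114111412 and LOC114111395 were higher in muscle, by 0.84 ± 0.29 and 0.87 ± 0.30 on the log2 scale (SE, limma adjusted p = 0.0177 and 0.0158), and each was higher in 7 of 8 ewes. The exception for both was ewe 255. LOC114111412 had 11.6 to 40.9 scaled reads in muscle and 5.47 to 19.2 in liver. These calls were lost when the ewe was added as a replicate block (adjusted p = 0.0661 and 0.0614), when the reads of the 4 classes set the library size (0.598 and 0.595), in control ewes alone (0.0583 and 0.0647), and without ewe 48, 233 or 132 (0.0543 to 0.0966). Over all alternatives their adjusted p-values ran from 0.00637 to 0.598, with muscle higher in each. The genes were picked for control muscle above prenatal T muscle. The fit in control ewes alone, which uses only that muscle group, is therefore not free of the choice. Being higher in muscle was not particular to this pair. In the main fit the other 5 copies next to HJV were higher in muscle by 0.85 to 1.03 on the log2 scale (limma adjusted p = 0.0133 to 0.0158).

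LOC114117093 and LOC114117060 did not differ beyond error between the tissues, with log2 differences of -0.09 ± 0.38 and -0.13 ± 0.38 (SE, limma adjusted p = 0.855 and 0.786). Muscle was higher in 6 of 8 ewes for each, and without ewe 255 the log2 differences were 0.40 ± 0.25 and 0.37 ± 0.23 (SE, limma adjusted p = 0.145 each).

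**Figure D5:**
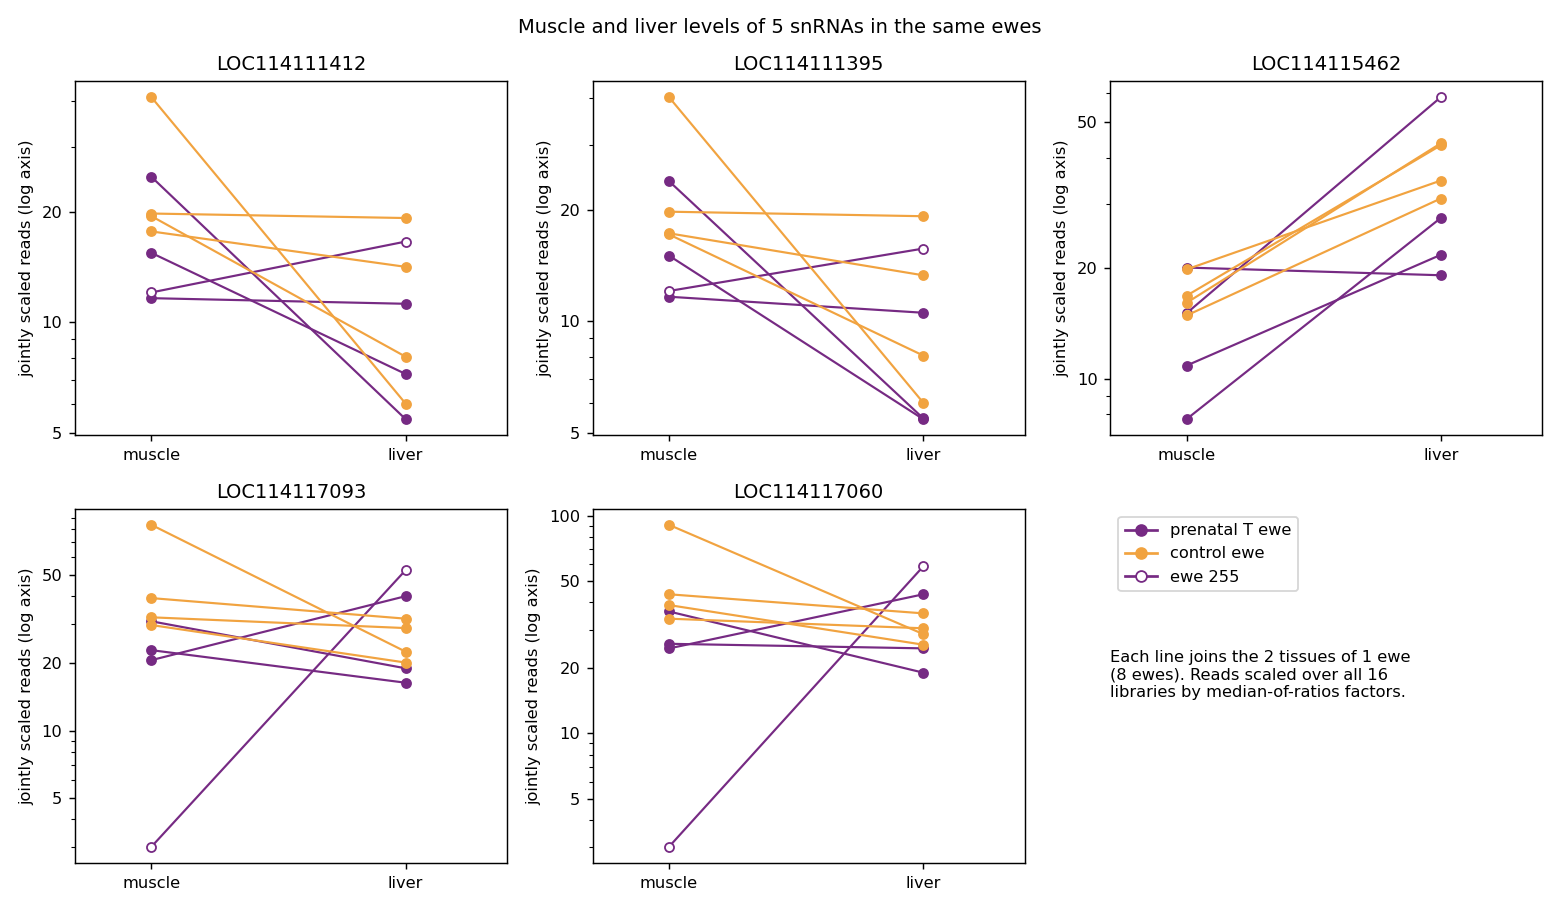
Reads of the 5 snRNAs scaled over all 16 libraries, on log axes, in muscle and liver of the same ewe; each line joins the tissues of 1 of 8 ewes, and open points are ewe 255. Lines run down from muscle to liver in 7 of 8 ewes for LOC114111412 and LOC114111395 and up in 7 of 8 for LOC114115462.

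The ratio of LOC114111412 to LOC114115462, which needs no scaling, separated the tissues in all 16 libraries. It was 0.8 to 2.06 in the 8 muscle libraries and 0.174 to 0.444 in the 8 liver libraries. It sets a gene higher in muscle over a gene lower in muscle, in the same libraries. The separation can follow from that pairing and is a description only. Within muscle it did not separate the treatments, at 0.8 to 1.5 in prenatal T ewes and 1.10 to 2.06 in control ewes.

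On the joint scale the order of the 4 groups differed among the genes. For LOC114115462, control liver stood highest at 38.2 ± 6.36 scaled reads, followed by prenatal T liver, control muscle and prenatal T muscle, the last at 13.4 ± 5.34 (SD, n = 4 each). For LOC114111412 and LOC114111395 the order was control muscle, prenatal T muscle, control liver and prenatal T liver. LOC114111395 averaged 23.6 ± 11.2 scaled reads in the highest of these groups and 9.29 ± 4.91 in the lowest. For LOC114117093 and LOC114117060 the order was control muscle, prenatal T liver, control liver and prenatal T muscle, and LOC114117060 averaged 51.7 ± 26.4 in the highest and 22.4 ± 14.0 in the lowest. Every pair of neighbouring groups in these orders overlapped in range for all 5 genes.

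Per 100 bases of annotated length, the deposited level in prenatal T muscle ran from 8.70 ± 2.00 normalised reads for LOC114115462 to 15.6 ± 10.6 for LOC114117060, and in control muscle from 13.2 ± 1.001 for LOC114115462 to 38.8 ± 13.0 for LOC114117060 (SD, n = 4 each). In liver the lowest level was that of LOC114111395, at 4.49 ± 1.69 in prenatal T ewes and 6.45 ± 3.65 in control ewes. The highest in control liver was LOC114115462, at 20.9 ± 4.04, and the highest in prenatal T liver was LOC114117060, at 17.7 ± 6.54. The most abundant of the 5 thus differed between control muscle and control liver. Whether the reads come from whole snRNAs or from fragments of them was not tested.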

How the data were processed

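Small RNA libraries had been made from total RNA of 16 tissue samples, per the labels' protocols. Reads had passed through featureCounts 1.6.1, STAR 2.6.0c and cutadapt 3.2 per the submitters' processing notes; the roles, the genome build and the handling of multi-mapping reads were not stated. The deposited values behave as a normalised signal: reads over a factor per library, made within each RNA class and tissue. No raw counts were used. Dividing by the smallest value above 0 in a library gave whole reads within 0.001 for 1099 of 1099 snRNA values (100%), and these recovered reads gave depth, ratios and alternative tests.

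The snRNAs and lists were chosen with earlier results of these data known. Within each tissue, log2(value + 1) of snRNAs with a mean of at least 5 was fitted with limma 3.58.1 (variance trend, Benjamini-Hochberg over all tested, threshold 0.05) in R 4.3.3, after tests on simulated data. The tissue contrast used median-of-ratios factors over 16 libraries. Exact permutation tests used scipy 1.17.1. The edgeR 4.0.16 and DESeq2 1.42.0 fits, other scalings, filters and pseudocounts, and leaving out each ewe were alternatives; edgeR with the authors' factors and joint scaling within a tissue were added after seeing the data.

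Libraries with the same ewe number come from the same animal, which pairs the tissues; same-ewe deviations correlated between -0.671 and 0.226 over 28 snRNAs. Replicate libraries differed by a chi-square per degree of freedom of 4.13 to 39.3, so none was a duplicate. Each group has 4 ewes, and p-values measure the spread between them. The main tissue fit took the 16 libraries as separate and left the pairing out, which only the replicate block used. Named snRNAs are the 5 described, the next 3 by muscle p-value, the 2 most correlated with each, and copies in the same gap between genes; those listed with 191 bases and LOC114117112 as a denominator were chosen after values were seen. Lists by snRNA type were planned but not made, because RefSeq gives no type, and annotated length was used instead. Lengths come from an assembly that may differ from the one used by the authors.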

Additional observations from a re-analysis of the deposited data

Results flagged for a closer look

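Of 48 groups of 4 libraries examined, 4 held a library far from the other 3 by Dixon's criterion, which chance alone meets in about 1 group in 20. For LOC114111395, control muscle of ewe 132 stood at 41.0 normalised reads, against 24.5 to 25.7 in the other 3 control muscles. In control liver of ewe 98, snRNAs took 0.517% of the reads of the 4 classes and snRNAs other than the 5 described took 0.422%. In prenatal T liver of ewe 255, the ratio of LOC114115462 to LOC114117112 was 1.81, against 0.316 to 0.488 in the other 3 prenatal T livers. None of these was examined further.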

How the results depend on the processing

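The limma count of 0 in muscle became 4 snRNAs lower in prenatal T, 2 of them described here, when all 147 snRNAs above 0 were fitted; it stayed at 0 in the other 17 alternatives. In liver it was 0 in all 20. The 5 genes were lower in prenatal T muscle in all 18 alternatives each, but they were picked for that direction in the same libraries. Their log2 differences lay between -2.06 (LOC114117060 with 1 ewe left out) and -0.38 (LOC114115462 under joint scaling). Between tissues, 19 calls became 9 with the 4-class library size, 9 in control ewes only and 15 with the replicate block, and 8 (without ewe 233) to 21 when an ewe was left out, with 12 without ewe 132. The paired fit changed no call of the 5 but those of LOC114111412 and LOC114111395.

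The directions that reversed belong to differences that passed no test. In liver, LOC114117093 and LOC114117060 became -0.14 and -0.16 under the 4-class scaling. Leaving out 1 library in liver gave -0.14 to 0.28 for LOC114117093, -0.12 to 0.23 for LOC114117060 and -0.53 to 0.0067 for LOC114111412. Between tissues, LOC114117093 became 0.0013 with edgeR and 0.77 in control ewes only, and LOC114117060 became 0.72 in control ewes only. The fit in control ewes only is not free of the choice of the genes. Leaving out an ewe gave -0.35 to 0.40 for LOC114117093 and -0.45 to 0.37 for LOC114117060. The liver share of the 5 genes became -0.0121 points of the 4-class reads and -0.191 with 1 gene per near-identical pair, and ran from -3.43 to 2.23 when 1 library was left out. The liver share of the other snRNAs became 0.184 points of snoRNA and snRNA reads, and -0.0980 to 0.0129 when 1 library was left out. The cause was not tested. Depth limits the muscle library of ewe 255 most, where 3 reads are worth 9.58 normalised reads.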
